A study of Mus musculus with 15 samples.

Results

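Neutrophil precursors sorted as PreNeut_Neutrophil were compared with granulocyte-monocyte progenitors that carry CD115, the receptor for macrophage colony-stimulating factor (CD115plusGMP), by the rank of each gene within its own library. The study sorted 5 populations from fresh bone marrow of healthy mice by flow cytometry and sequenced messenger RNA of 3 libraries for each, 15 in all. Both groups used here carry no treatment or engineered allele in the labels, which state neither age, sex and strain nor the surface gates, and it is not stated that a group's 3 libraries derive from different mice. The p-values below therefore reflect library-to-library spread, which may be technical. The comparison asks how the transcriptome of a committed neutrophil precursor is ordered relative to that of a progenitor defined by a monocyte-lineage receptor. Of 14801 identifiers in the table, 14298 had a gene symbol. Of these, 7388 exceeded a log2 value of 3 in the deposited scaled read count (CPM) in at least 3 of the 6 libraries. Passing took 6, 4 and 4 reads in the CD115plusGMP libraries and 217, 203 and 1130 in the PreNeut libraries. These are not in proportion to the total reads, so that the limit was not scaled by depth alone. At that limit, Fbrsl1 and Cep89 were just inside, with a third-highest log2 CPM of 3.0028, and Lrr1 and Mrps16 were just outside at 2.99959.

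Neutrophils build their granules in sequence. Azurophilic (primary) granule proteases and myeloperoxidase are made first, in promyelocytes. Specific (secondary) granule proteins such as lactoferrin and the cathelicidin follow in myelocytes under C/EBP epsilon, and gelatinase granule and receptor genes come last, as division ceases. Monocyte commitment is instead tied to IRF8 and to CD115 signalling. Ribosome production is high in early progenitors and falls as neutrophils mature.

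The 2 groups belong to library sets that stand apart in depth, in composition and in the strand of mitochondrial reads. The CD115plusGMP libraries held 810794 to 1284327 reads, of which 60.3% to 61.7% fell on identifiers without a symbol, and the PreNeut libraries held 11318009 to 68171606 reads with 0.102% to 0.13% on such identifiers. The CMP and Neutrophil libraries resemble the former set and the ProNeut_Neutrophil libraries the latter, so that set and group cannot be told apart here. ND6, the mitochondrial gene on the strand opposite to most others, took 89.7% to 93.3% of mitochondrial messenger reads in CD115plusGMP and 0.154% to 0.195% in PreNeut. Percentile ranks (0 lowest, 100 highest, over the 7388 genes) were compared instead of levels. Ranks set aside the scale of a library but not the strand of its reads: ND6 ranked 31.7, 35.95 and 42.5 in PreNeut and 99.95 in every CD115plusGMP library. A median tested gene had 4 to 9 reads in a CD115plusGMP library and 586 to 3414 in a PreNeut library, and a gene with 0 reads had a rank of 3.32, 8.89 and 7.97 in the 3 CD115plusGMP libraries. Counts of 0 over all 3 of them allow up to 2.54 CPM over the 1181648 reads on named genes, for counting error only. Across genes, ranks of 2 PreNeut libraries correlated at r = 0.985 to 0.99, ranks of 2 CD115plusGMP libraries at 0.824 to 0.855, and ranks across the groups at −0.0997 to −0.0103. Over all 14298 genes with a symbol, not filtered, the correlation across the groups was 0.373 to 0.481.

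A gene was called when limma gave a Benjamini-Hochberg adjusted p under 0.05 and the group means differed by at least 20 percentile points. By this rule 2386 genes, 32.3% of those tested, ranked higher in PreNeut and 1817, 24.6%, ranked lower. All 3 PreNeut libraries lay above all 3 CD115plusGMP libraries for 46% of tested genes and below them for 29.4%. With log2 CPM in place of ranks, 75.4% of calls were higher against 56.8% by rank, and the median gene was 1.93 higher on the log2 scale. The rank comparison itself was not centred: 61.7% of tested genes had a higher mean rank in PreNeut, and the median difference was 9.37 points. The filter contributed to single directions as well. Of the 2071 genes that passed it through PreNeut alone 94.7% ranked higher there, of the 1096 that passed through CD115plusGMP alone none did, and of the 4221 that passed through both 61.5% did. Genes that passed through 1 group had to differ, so that their p-values and gaps between libraries are partly set by the filter, and named genes of this kind are pointed out. Each gene list below is also given over all its members in the table, ranked among all 14298 genes without a filter, where 55.6% of genes ranked higher, 18.1% were called higher and 16% were called lower.

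Genes that share exons with a gene on the other strand were unevenly spread over the calls. Such an overlap of at least 50 bases, from the GENCODE M21 annotation of GRCm38, was present for 36.3% of all tested genes with a match, for 23.3% of those called higher and for 67.8% of those called lower. Among the 100 called genes with the most negative differences and no overlap between libraries, 85 of the 89 matched ones had a partner. Without strand information in the labels, reads of a gene and of its opposite-strand partner cannot be told apart, and each list is therefore also given without such genes, re-ranked among the remaining 4660, where the median difference was 3.15 points and 55.3% ranked higher. Leaving out these genes cannot show whether reads of genes without a partner were also assigned by strand in unlike ways, which was not tested.

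**Figure D1:**
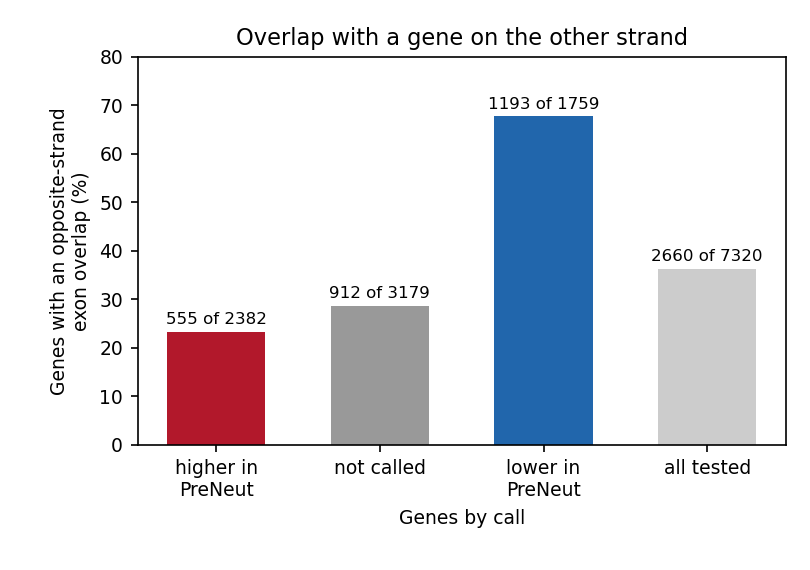
Share of genes (y axis, %) with an opposite-strand exon overlap, for genes called higher in PreNeut, not called, called lower, and all tested; counts stand above the bars. The share is 67.8% among lower calls and 23.3% among higher calls.

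Of 48 gene lists, 39 had at least 5 tested members, and in 17 of these at least 75% of the tested members differed in 1 direction: 16 ranked higher in PreNeut and 1, ribosome biogenesis, ranked lower. Counts of called members below stand against 32.3% of all tested genes called higher and 24.6% called lower. Since 61.7% of all genes ranked higher, lists whose median lay near 9.37 points say little beyond that background. The lists that stood farthest from it were those of specific granules, ribosome biogenesis, gelatinase granules, surface proteins used in progenitor sorting, Fc receptor signalling and mitosis.

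**Figure D2:**
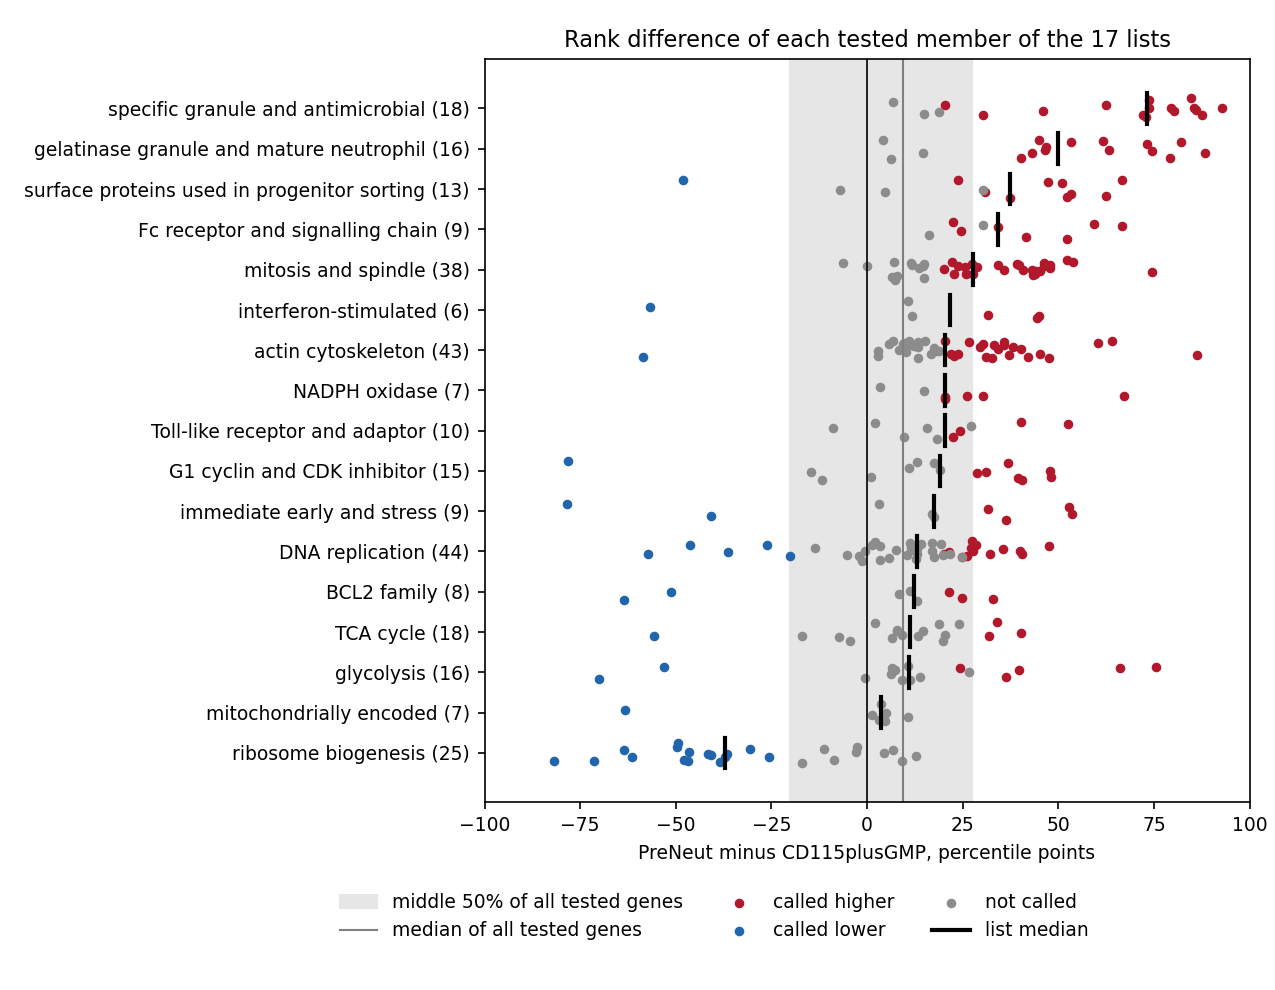
Difference in percentile rank (x axis, PreNeut minus CD115plusGMP) for every tested member of the 17 lists that agree in direction, with the number tested in brackets; black bars are list medians and the grey band spans −20.25 to 27.58 points, the middle 50% of all tested genes. The specific granule list has the highest median, 73.28 points, and ribosome biogenesis the lowest, −37.15 points.

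Promoter sequences are shown for the members with the largest differences in 2 of these lists, because members of a list that moved together can be compared for short shared motifs. The sequences are the 120 bases before the RefSeq start site on GRCm38.p6, 5′ to 3′ on the gene's strand. For 3 granule genes, capitals mark GAGGAAG or its complement CTTCCTC, the letters of a PU.1-type Ets site. Pglyrp1 (chr7:18884570-18884689, plus strand), Lcn2 (chr2:32387740-32387859, minus strand) and Olfm4 (chr14:80000182-80000301, plus strand) read:
Pglyrp1: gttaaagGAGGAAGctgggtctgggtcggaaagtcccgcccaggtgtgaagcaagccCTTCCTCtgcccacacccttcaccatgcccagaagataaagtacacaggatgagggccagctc
Lcn2: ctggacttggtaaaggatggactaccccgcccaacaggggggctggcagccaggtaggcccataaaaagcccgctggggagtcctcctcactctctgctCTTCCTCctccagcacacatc
Olfm4: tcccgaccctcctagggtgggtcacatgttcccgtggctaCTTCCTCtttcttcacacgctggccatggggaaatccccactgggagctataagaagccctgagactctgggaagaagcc

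For the 5 mitosis genes with the largest differences, capitals mark CCAAT, the letters of the NF-Y box, or its complement ATTGG, and TTTGAA, the letters of the cell cycle homology region, or its complement TTCAAA. They are Ube2c (chr2:164769809-164769928, plus strand), Cenpf (chr1:189688087-189688206, minus strand), Aurka (chr2:172370571-172370690, minus strand), Ttk (chr9:83834569-83834688, plus strand) and Bub1 (chr2:127831860-127831979, minus strand):
Ube2c: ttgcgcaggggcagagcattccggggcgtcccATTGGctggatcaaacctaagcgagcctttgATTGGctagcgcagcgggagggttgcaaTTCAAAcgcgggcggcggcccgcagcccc
Cenpf: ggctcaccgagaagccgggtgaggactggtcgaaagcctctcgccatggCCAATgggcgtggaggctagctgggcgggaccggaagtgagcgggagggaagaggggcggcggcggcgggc
Aurka: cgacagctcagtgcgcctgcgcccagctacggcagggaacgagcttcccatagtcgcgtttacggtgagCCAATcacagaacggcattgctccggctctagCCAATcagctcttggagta
Ttk: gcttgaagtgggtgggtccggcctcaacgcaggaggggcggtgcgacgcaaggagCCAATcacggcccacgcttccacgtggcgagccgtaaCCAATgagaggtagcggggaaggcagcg
Bub1: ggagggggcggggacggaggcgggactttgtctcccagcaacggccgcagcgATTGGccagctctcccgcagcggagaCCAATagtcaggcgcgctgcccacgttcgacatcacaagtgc

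In the 250 bases before the start, on either strand, CCAAT was present in 24 of 31 mitosis genes with a promoter entry (77.4%) and in 40.1% of the 5814 tested genes with an entry. TTTGAA was present in 12 of the 31 (38.7%) against 12.8%. Neither was limited to mitosis genes: CCAAT was present in 21 of 35 DNA replication genes (60%), and TTTGAA in 5 of 14 specific granule genes (35.7%). GAGGAAG was present in 4 of 14 specific granule genes (28.6%), in 5 of 12 gelatinase granule genes (41.7%) and in 6 of 11 azurophilic granule genes (54.5%) against 13.5%, and in 2 of 12 monocyte effector genes (16.7%). The cathelicidin gene Camp held none in the 120 bases printed for the others, and its promoter is left out. A match is a description of letters, not of a bound site.

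Specific granule genes showed the largest shift: all 18 tested members ranked higher in PreNeut, with a median difference of 73.28 points, and 15 of the 18 were called. These genes encode the iron-binding, antimicrobial and matrix-degrading cargo of the secondary granule. The median rank of the list was 99.7, 99.6 and 99.6 in the PreNeut libraries and 22.8, 28.9 and 21.8 in the CD115plusGMP libraries, a gap without overlap. Only 6 of the 18 passed the filter through both groups and 12 through PreNeut alone. Over all 20 members without a filter 19 ranked higher and 14 were called, with a median of 46.52 points against 3.29 for all genes. No tested member has an opposite-strand partner, and re-ranked among genes without one all 18 ranked higher, with a median of 68.27 points. The exception, the collagenase gene Mmp8, had 8 reads in CD115plusGMP and 1087 in PreNeut, and Ceacam10, the other member that did not pass, had 0 and 1691.

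Pglyrp1, a peptidoglycan-recognition protein of the granules, had 0 reads in every CD115plusGMP library and 18595, 14311 and 97929 reads in PreNeut. Its rank was 99.5, 99.4 and 99.5 in PreNeut, a difference of 92.74 points (SE 2.5, limma adjusted p = 1e-06). Wfdc21 ranked 98.8, 98.5 and 98.6 in PreNeut and 16.4, 8.89 and 7.97 in CD115plusGMP, a difference of 87.55 points. Lcn2, the siderophore-binding lipocalin, stood at 99.9 in all 3 PreNeut libraries and at 9.88, 23.5 and 7.97 in CD115plusGMP. Camp, the cathelicidin precursor, had 4, 0 and 0 reads in CD115plusGMP and ranked 99.9 in every PreNeut library, with a difference of 84.76 points (SE 5.99, limma adjusted p = 6e-05). Olfm4, olfactomedin 4 of a granule subset, ranked 93.0, 92.4 and 91.6 against 0 reads in CD115plusGMP. In each of these 5 genes the lowest PreNeut library lay far above the highest CD115plusGMP library, and each passed the filter through PreNeut alone. Ngp and Ltf, chosen after their values were seen, are the neutrophilic granule protein and lactoferrin, and both passed through PreNeut alone. Ngp had 10 reads in CD115plusGMP and 7091383 in PreNeut, and its rank differed by 62.54 points (limma adjusted p = 3.9e-05). Ltf had 6 and 1871200 reads and differed by 73.68 points. Hp, Cybb and Lyz2, the haptoglobin, oxidase and lysozyme genes, also chosen afterwards, differed by 18.94, 14.83 and 6.81 points: they already ranked between 75.6 and 95.4 in CD115plusGMP, which leaves little room below 100.

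The Neutrophil libraries, which share the depth and composition of CD115plusGMP, had specific granule medians of 92, 88.7 and 96.6, and the CMP libraries had 5.9, 4.9 and 7.0. All 18 members separated the 2 sets completely, with every PreNeut and ProNeut library above every other library. Such separation was common: it held for 1305 of the genes called higher (54.7%) and, in the other direction, for 1295 of those called lower (71.3%). The counts given per list are over tested members, called or not, so that these shares of called genes are not a matching background for them.

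Gelatinase granule and late receptor genes ranked higher in PreNeut in all 16 tested members, with a median of 50.03 points and 13 called. This list holds metalloproteinases, chemoattractant and cytokine receptors and lectins of late neutrophils. Its median rank was 72.7, 69.2 and 72.6 in PreNeut and 3.3, 8.9 and 8.0 in CD115plusGMP, the latter at the rank of 0 reads. Here too 12 members passed through PreNeut alone, and over all 24 members without a filter 20 ranked higher and 16 were called, with a median of 36.76 points. Without the 1 member that has an opposite-strand partner, 13 of 15 ranked higher, with a median of 46.08 points. Trem3, an activating receptor, had 0 reads in CD115plusGMP and ranked 95.5, 93.9 and 95.5 in PreNeut, 88.25 points apart (SE 2.56, limma adjusted p = 1.1e-06). Mxd1, a MAX partner that opposes MYC, ranked 95.4, 95.6 and 96.4 against 9.88, 23.5 and 7.97. Mmp25, a membrane-bound metalloproteinase, ranked 85.4, 86.3 and 85.8 against 0 reads. None of these libraries overlapped between the groups, and all 3 genes passed through PreNeut alone. Csf3r, the granulocyte colony-stimulating factor receptor, was less even in CD115plusGMP, where 9, 0 and 0 reads gave ranks of 51.2, 8.89 and 7.97 against 95.9, 96.1 and 95.3 in PreNeut (limma adjusted p = 0.0026). Cd300lf, an inhibitory receptor that also passed through PreNeut alone, differed by 74.46 points. Unlike the specific granule list, only 3 of the 16 separated the 2 library sets, and the Neutrophil libraries had list medians of 81.3 to 89.5.

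**Figure D3:**
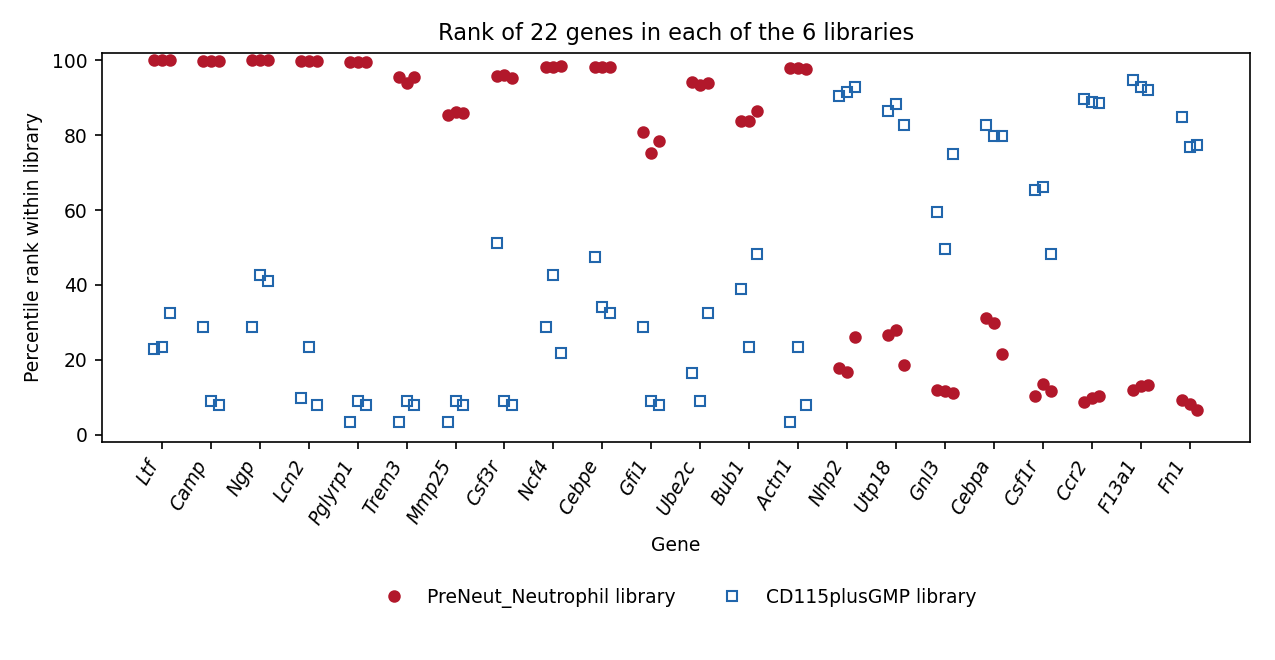
Percentile rank within the library (y axis) of 22 genes in the 3 PreNeut libraries (filled circles) and the 3 CD115plusGMP libraries (open squares). The libraries of the groups do not overlap for any of the genes shown; granule, receptor, mitosis and Cebpe points are higher in PreNeut, and ribosome biogenesis, Cebpa and monocyte points are lower.

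Subunits and adaptors of the phagocyte effector machinery followed the same direction. All 7 genes of the NADPH oxidase, the superoxide-producing complex, ranked higher, 5 were called, and the median was 20.45 points. Ncf4 (p40phox) ranked 98.3, 98.3 and 98.4 in PreNeut and 28.7, 42.7 and 21.9 in CD115plusGMP, having passed through PreNeut alone. Rac2, the GTPase of the complex, ranked 99.7, 99.7 and 99.6 against 79.5, 55.1 and 73.2, and Cyba and Ncf1 differed by 20.45 and 20.41 points. The groups were apart in each of these genes, and the list median was 73.2 to 79.4 in CD115plusGMP against 98.5 to 98.7 in PreNeut. Ncf1 has an opposite-strand partner. Of the 7 genes, 5 separated the 2 library sets, and the Neutrophil libraries had list medians of 91.9 to 96.4. In the unfiltered ranking all 7 again ranked higher, but 1 was called and the median was 10.59 points; without members that have a partner, 5 of 5 ranked higher, with a median of 13.49 points. Cyba and Ncf1 fell below the 20-point limit without CD115plusGMP replicate 3 (16.99 points) and replicate 1 (19.89 points), respectively.

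All 9 tested genes of the Fc receptor list, which recognise antibody and relay the signal, ranked higher, 7 were called, and the median was 34.33 points. Fgr, a Src-family kinase, ranked 96.7, 96.2 and 96.9 against 22.8, 34.2 and 32.5 (66.77 points, SE 3.49, limma adjusted p = 1.5e-05). The inhibitory receptor gene Fcgr2b, which has an opposite-strand partner, differed by 52.32 points, and both genes passed through PreNeut alone. The shared gamma chain Fcer1g differed by 41.62 points and the kinase Syk by 34.33 points (18.16, below the limit for a call, without a filter). Fcgr3 ranked 89.4, 86.7 and 87.5 against 74.5, 23.5 and 74.9 and was not called (limma adjusted p = 0.11). Without members that have a partner, 7 of 7 ranked higher, with a median of 23.24 points. Over all 13 members without a filter 11 ranked higher and 5 were called, with a median of 18.16 points; Fcgr1, Fcgrt, Fcer1a and Fcrl1 had at most 63 reads over the PreNeut libraries and 3 over CD115plusGMP. In the Toll-like receptor list 9 of 10 tested members ranked higher and 4 were called, where 32.3% of all tested genes were called higher. Among the 4 were Irak3 (52.51 points), an inhibitor of the pathway, and the adaptor Myd88 (40.39 points), both with a partner. Myd88 passed through PreNeut alone. Over all 23 members without a filter 19 ranked higher and 4 were called, a share near the 18.1% of all genes, with a median of 9.85 points. Without partners 4 of 5 ranked higher, with a median of 5.41 points. Tlr4, the lipopolysaccharide receptor, had 1 read in CD115plusGMP and passed through PreNeut alone. Its difference of 24.38 points was not called after thinning all libraries to the smallest (24.65 points, limma adjusted p = 0.052) or among genes without a partner (14.09 points, limma adjusted p = 0.14).

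Genes of mitosis and the spindle ranked higher in 36 of 38 members, and 26 were called, all higher. The list covers cyclins B, kinetochore proteins, spindle kinesins, Aurora and Polo kinases and condensins. All 38 passed the filter, 34 through both groups, and the list median was 90.2, 89.8 and 90.7 in PreNeut and 62.5, 61.1 and 61.1 in CD115plusGMP. The median difference of 27.59 points stood against 9.37 for all genes. Over the unfiltered ranking 36 of 38 members ranked higher and 14 were called, with a median of 15.48 points.

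Ube2c, the ubiquitin-conjugating enzyme of the anaphase-promoting complex, ranked 94.2, 93.5 and 93.8 in PreNeut and 16.4, 8.89 and 32.5 in CD115plusGMP (74.6 points, SE 6.17, limma adjusted p = 0.00012). Aurka, the centrosomal Aurora kinase, ranked 81.1, 76.9 and 82.6 against 33.9, 8.89 and 41.0. Ttk, a spindle checkpoint kinase, ranked 68.8, 68.4 and 68.2 against 16.4, 23.5 and 21.9. The groups did not overlap in any of these genes, but all 3 passed the filter through PreNeut alone, unlike most of the list, and their CD115plusGMP values rest on 0 to 5 reads per library. Ube2c also overlaps Tnnc2 on the other strand. Bub1, another checkpoint kinase, ranked 83.7, 83.7 and 86.5 against 38.9, 23.5 and 48.2. Cenpf, a kinetochore protein, varied most in CD115plusGMP, with ranks of 63.5, 8.89 and 48.2 from 14, 0 and 4 reads (limma adjusted p = 0.015), and it was not called in the unfiltered ranking (limma adjusted p = 0.065). The proliferation marker Mki67 and the mitotic kinase Cdk1, chosen after their values were seen, ranked 89.8 or higher and 71.3 or higher in every library and differed by 7.79 and 13.61 points, neither called. The exceptions in direction were Ccna2 (cyclin A2, −0.12 points) and Kif20a (a cytokinesis kinesin, −6.23 points), which overlap Exosc9 and Cdc23 on the other strand. Without genes that have such a partner, 29 of 30 members ranked higher, with a median of 19.8 points. Within the shallower library set the list median was 73.2 to 74.3 in CMP and 12.7 to 17.6 in Neutrophil, and 31 of the 38 genes separated the 2 sets. The Neutrophil medians are the rank of 0 reads in those libraries, where 1881 to 2595 tested genes had none.

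Other division genes moved less. Of 44 DNA replication genes, 34 ranked higher, 13 were called higher and 5 lower, and the median of 13.03 points was close to that of all genes. Pold1 and Pole, catalytic subunits of the replicative polymerases, differed by 47.63 and 40.64 points. Cdc45, a helicase component, ranked 86.6, 83.4 and 85.6 against 63.5, 23.5 and 48.2. Gins2 and Orc1, other parts of the origin machinery, were lower by −57.21 and −46.18 points, and both overlap a gene on the other strand, as do Pole and Cdc45. Orc1 passed through CD115plusGMP alone. Without a filter 36 of 44 ranked higher, 7 were called higher and 2 lower, and the median was 9.01 points; without members that have a partner 20 of 29 ranked higher, with a median of 7.33 points. Among G1 regulators 12 of 15 ranked higher and 7 were called so. Over all 18 of them without a filter 12 ranked higher and 5 were called so, with a median of 8.88 points, and without partners 7 of 9 ranked higher, with a median of 19.75 points. Cdk2 and the pocket protein gene Rbl1 differed by 48.04 and 47.83 points, and the CDK inhibitor Cdkn2d by 40.64 points. Cyclin D1 (Ccnd1), with ranks of 5.18, 3.9 and 8.95 in PreNeut and 85.3, 82.1 and 84.9 in CD115plusGMP, ran the other way at −78.1 points (limma adjusted p = 1.9e-06), and this gene, which passed through CD115plusGMP alone, has a partner on the other strand.

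Actin cytoskeleton genes ranked higher in 42 of 43 members and 22 were called higher. These encode actin, the Arp2/3 complex, capping proteins, myosin light chains and small GTPases, the machinery of migration and phagocytosis. The list median was 98.3, 97.9 and 98.1 in PreNeut and 79.4, 72.6 and 76.3 in CD115plusGMP, with a median difference of 20.49 points. Of the 43 genes, 37 separated the 2 library sets, and the Neutrophil libraries had list medians of 87.3 to 92.2. Actn1, an actin crosslinker, ranked 97.96, 97.8 and 97.7 against 3.32, 23.5 and 7.97, or 1 read in all. Arpc4 of the Arp2/3 complex ranked 94.9, 93.4 and 93.8 against 33.9, 23.5 and 32.5, and Myl12a, a regulatory myosin light chain, ranked 94.2, 92.5 and 94.1 against 47.5, 49.5 and 41.0. The groups did not overlap in these 3 genes. Actn1, Arpc4 and Actg1 passed through PreNeut alone, and Actn1 and Myl12a have a partner on the other strand. The gamma-actin gene Actg1 differed by 60.4 points, but near-identical copies of actin genes make its count uncertain. Tmsb10, which sequesters actin monomers, was the exception, with ranks of 14.2, 13.3 and 13.9 against 80.01, 70.9 and 66.0 (−58.52 points, SE 4.04, limma adjusted p = 5.3e-05). It passed through CD115plusGMP alone and has no partner. Without members that have an opposite-strand partner, 25 of 27 ranked higher and the median fell to 10.91 points. In the unfiltered ranking 42 of 43 ranked higher and 11 were called higher, with a median of 10.61 points.

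Ribosome biogenesis was the 1 list that ranked lower: 21 of 25 tested members, of which 16 were called, with a median of −37.15 points. Its products process ribosomal RNA and assemble the subunits in the nucleolus. The list median was 31.8, 30.1 and 31.0 in PreNeut and 74.5, 80.6 and 74.9 in CD115plusGMP. Most members, 19, passed through both groups, 4 through CD115plusGMP alone and 2 through PreNeut alone. Over all 38 members without a filter 29 ranked lower, 19 were called lower and 4 higher, with a median of −20.18 points, where 16% of all genes were called lower.

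Nhp2, a box H/ACA ribonucleoprotein, ranked 17.8, 16.7 and 26.1 in PreNeut and 90.6, 91.6 and 92.8 in CD115plusGMP (−71.48 points, SE 3.24, limma adjusted p = 7.9e-06). Utp18 of the small-subunit processome ranked 26.5, 27.9 and 18.8 against 86.4, 88.3 and 82.8. Gnl3 (nucleostemin) ranked 12.03, 11.6 and 11.1 against 59.4, 49.5 and 74.9. None of these 3 has a partner on the other strand, and their libraries did not overlap. Tsr1 (−81.91 points) and Wdr43 (−63.61 points) have such a partner. Tsr1 and Gnl3 passed through CD115plusGMP alone. Npm1 (nucleophosmin), chosen after its values were seen, ranked 56.7, 48.8 and 48.5 against 90.0, 85.1 and 90.3, a difference that fell below the limit for a call without a filter (−19.2 points). Ncl (nucleolin) remained at 94.02 or above in all 6 libraries and differed by −2.65 points. Without genes that have a partner, 16 of 16 members ranked lower and the median was −53.08 points, against 3.15 for all such genes. In the shallower set the list median was 84.7 to 87.5 in CMP and 36.0 to 47.4 in Neutrophil, so that CD115plusGMP lay between them, and 6 of the 25 genes separated the 2 sets. Myc, a transcription factor known to drive these genes, ranked 13.4, 14.99 and 13.4 in PreNeut and 56.9, 55.1 and 48.2 in CD115plusGMP (−39.48 points, limma adjusted p = 0.0001) and passed through CD115plusGMP alone. Of the cytosolic ribosomal proteins 34 of 49 ranked lower, short of the 75% set for agreement, with 18 called lower, 3 called higher and a median of −11.43 points. Without genes that have a partner 35 of 42 ranked lower, which is above 75%, with a median of −22.92 points, and over all 87 without a filter 46 ranked lower, with a median of −2.69 points. Among genes without a partner, 24 of 28 mitochondrial ribosomal proteins ranked lower (median −16.67 points). So did 15 of 19 SR and hnRNP splicing factors (−9.5 points), and both shares are above 75%. Without a filter most members of these 2 lists ranked higher, with medians of 2.98 and 1.29 points.

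**Figure D4:**
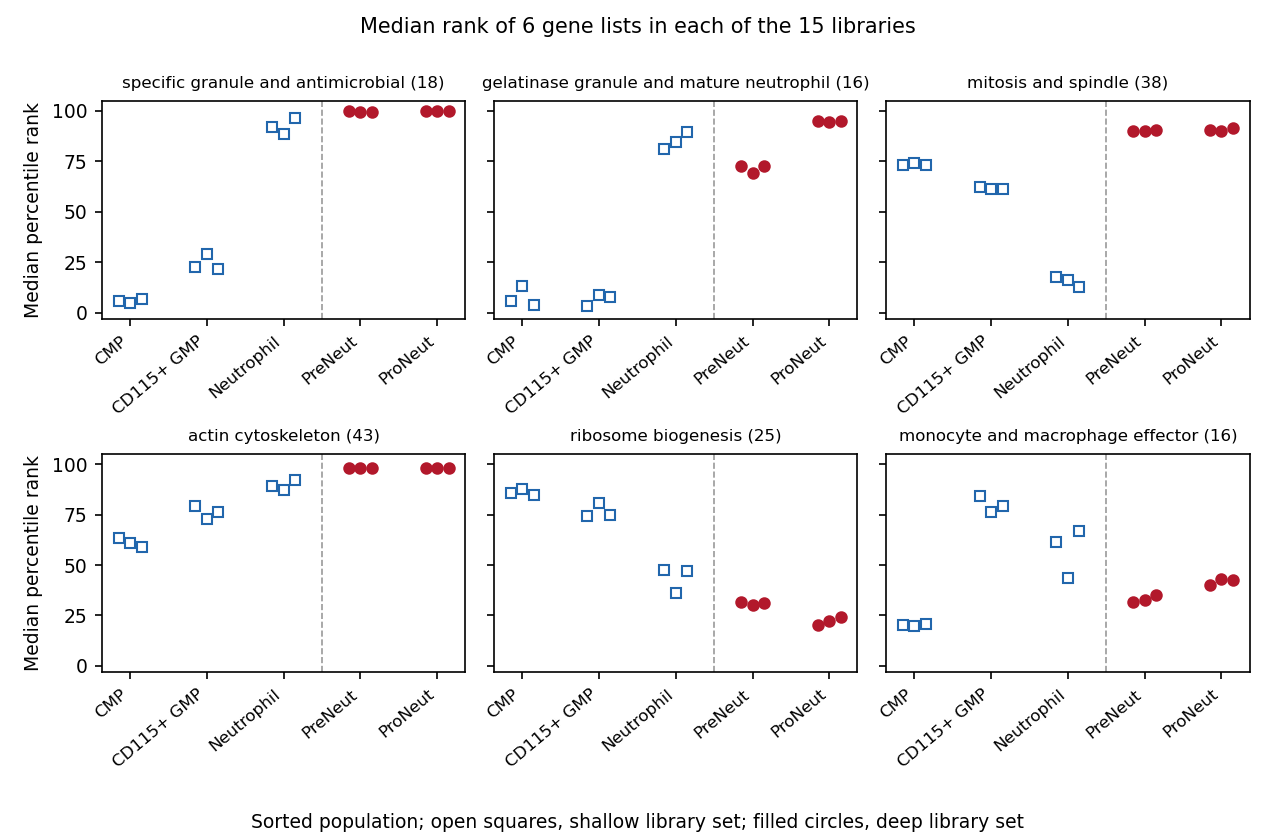
Median percentile rank (y axis) of the tested members of 6 gene lists in each of the 15 libraries, grouped by sorted population (x axis), with open squares for the shallower and filled circles for the deeper library set. The specific granule list is at 88.7 to 96.6 in Neutrophil, which shares a set with CD115plusGMP at 21.8 to 28.9, and at 99.6 to 99.7 in PreNeut.

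The labels were checked on the genes of the sort and of the monocyte lineage. Csf1r, which encodes CD115, had 15, 8 and 4 reads in CD115plusGMP and ranked 65.5, 66.2 and 48.2 there. It ranked 10.3, 13.6 and 11.6 in PreNeut (−48.11 points, SE 5.45, limma adjusted p = 0.0005), without overlap, in the direction of the label. Within the shallower set, Csf1r ranked 3.67 to 19.6 in CMP but 51.6 to 80.2 in Neutrophil. The Neutrophil mean of 68.21 was above the CD115plusGMP mean of 59.95, so that the rank of Csf1r did not set CD115plusGMP apart from Neutrophil. It passed the filter through CD115plusGMP alone and overlaps Hmgxb3 on the other strand, so that its own reads cannot be told apart from those of its partner. Of the 13 tested surface genes 11 ranked higher in PreNeut and 9 were called so, with a median of 37.27 points. Over all 20 without a filter 14 ranked higher, 8 were called higher and 2 lower, and the median was 16.78 points; without partners 7 of 9 ranked higher, with a median of 19.85 points. Itgam (CD11b) ranked 99.6, 99.6 and 99.6 against 56.9, 34.2 and 54.3, and Itgal (CD11a) differed by 47.23 points. Ly6g ranked 65.6, 63.1 and 65.5 against 1 read in CD115plusGMP and passed through PreNeut alone. Kit, a progenitor receptor, was called higher in PreNeut, the direction opposite to Csf1r. It ranked 73.4, 74.2 and 63.6 against 43.4, 23.5 and 32.5, the latter from 7, 1 and 2 reads. Cxcr4, which holds cells in the marrow, differed by 23.75 points. Vcam1 and Cd81, which passed through PreNeut alone and have a partner on the other strand, differed by 66.63 and 62.55 points. Ly6c2 differed by 30.83 points. Without a filter Cxcr4 and Ly6c2 fell below the limit for a call, at 12.37 and 16.27 points, while Selplg (−7.01 points) and Spn (4.82 points) were not called.

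Monocyte and macrophage effector genes ranked lower in 11 of 16 tested members, 68.8%, and so did not meet the 75% set for agreement. The filter was passed by 8 through both groups and by 8 through CD115plusGMP alone, where no tested gene ranked higher. The 5 members that ranked higher all passed through both groups, so that most of the lower direction was set by the filter. Of the 16, 9 were called lower and Ly6c2 was called higher. Ccr2, the chemokine receptor for marrow egress of monocytes, ranked 8.83, 9.71 and 10.3 in PreNeut and 89.7, 88.8 and 88.5 in CD115plusGMP (−79.42 points, SE 2.12, limma adjusted p = 1e-06). Ms4a4c and Ms4a6c, membrane proteins of monocytes, differed by −69.54 and −68.7 points. F13a1, a coagulation factor subunit, and Fn1, fibronectin, differed by −80.42 and −71.69 points. All 5 passed through CD115plusGMP alone, and Ms4a6c, F13a1 and Fn1 have a partner on the other strand. Over all 26 members without a filter 19 ranked lower and 12 were called lower, none higher, with a median of −25.6 points. Without members that have a partner 8 of 10 ranked lower, with a median of −21.81 points. The list of monocyte transcription factors was split: of 4 tested members 2 were called higher and 2 lower, from −84.22 to 82.2 points. Of these, 2 passed through PreNeut alone and 2 through CD115plusGMP alone. Over all 14 without a filter 6 ranked higher and 8 lower, with a median of −2.61 points. Without partners 2 of 3 ranked higher, with a median of 28.2 points. Irf8 and Zeb2, fate regulators chosen after their values were seen, were lower by −73.5 and −84.22 points, while the 2 list members called higher reached 82.2 points. Irf8 and Zeb2 are outside the rule for named genes and passed through CD115plusGMP alone. Zeb2 overlaps Zeb2os, and Irf8 has no partner.

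Azurophilic granule genes and granulocyte transcription factors did not agree in direction. Azurophilic granule genes were high in both groups: the list median was 91.7, 87.8 and 89.0 in PreNeut and 82.7, 76.8 and 80.7 in CD115plusGMP, with 4 of 13 called higher and 4 lower. Without a filter 9 of 13 ranked higher and 1 was called in each direction, with a median of 4.28 points, and without partners 5 of 10 ranked higher, with a median of 1.78 points. Elane, Prtn3 and Mpo, chosen after their values were seen, differed by 14.91, 8.28 and 2.99 points, and Prtn3 and Mpo have a partner on the other strand. Ctsc, the protease that activates these enzymes, ranked 11.5, 11.1 and 11.9 in PreNeut and 82.7, 76.8 and 78.6 in CD115plusGMP (−67.88 points, limma adjusted p = 3.4e-06) and passed through CD115plusGMP alone. Prss57, a serine protease with a partner on the other strand, differed by −25.73 points, and Ms4a3 and Clec12a by 29.36 and 29.74 points. Without a filter these 3 were below the limit for a call, at −13.3, 15.56 and 15.66 points. Nkg7, with 3 reads in CD115plusGMP and a filter passed through PreNeut alone, differed by 32.37 points. It was not called with the replicate block (limma adjusted p = 0.058), among genes without a partner (0.2), or with PreNeut replicate 1, 2 or 3 or CD115plusGMP replicate 1 or 3 left out (0.09 to 0.12). Of 10 granulocyte transcription factors 6 ranked higher, 5 were called higher and 3 lower, and the median was 20.87 points. Over all 12 without a filter 7 ranked higher, with a median of 11.43 points, and without partners 3 of 4 ranked higher, with a median of 25.14 points. Cebpe, which drives specific granule genes, ranked 98.2, 98.1 and 98.3 against 47.5, 34.2 and 32.5 (60.1 points, limma adjusted p = 6.2e-05). Gfi1, a repressor of monocyte genes, ranked 80.8, 75.3 and 78.4 against 28.7, 8.89 and 7.97, having passed through PreNeut alone. Cebpa, the earlier family member, ran the other way at 31.2, 29.8 and 21.6 against 82.7, 79.8 and 79.7 (−53.18 points), as did Cebpb (−42.44 points). Cebpa, Cebpb and Gfi1 have partners on the other strand and Cebpe has none.

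The largest single differences showed the strand pattern most clearly. The 8 largest higher calls were Pglyrp1, Itgb2l, Sept5, Gca, Alox5, Ets1, Cd9 and Hsd11b1, all with 0 reads in every CD115plusGMP library. Itgb2l is a neutrophil integrin-like subunit, Gca the calcium-binding grancalcin and Alox5 the 5-lipoxygenase of leukotriene synthesis. Their differences ran from 88.87 points (Hsd11b1) to 92.74 points (Pglyrp1), and Gca and Cd9 have a partner on the other strand. The 8 largest lower calls were Ppifos, Tmem88, Slc5a2, Samd11, Plcxd1, Mmp24, Tsix and Mast1, from −94.41 points (Mast1) to −95.34 points (Ppifos), and all 8 have one. All 16 passed the filter through the group in which they rank higher. Ppifos and Tsix are themselves antisense transcripts, of Ppif and Xist. Tmem88, on chromosome 11 at 69396519 to 69398234 of the minus strand, overlaps Naa38; it had 1044, 798 and 586 reads in CD115plusGMP and 8, 0 and 0 in PreNeut.

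The remaining lists that agreed in direction lay near the background or changed with the processing. Glycolysis (13 of 16 higher, median 10.98 points), the TCA cycle (14 of 18, 11.26 points) and the BCL2 family (6 of 8, 12.17 points) had medians close to 9.37. Immediate early genes (7 of 9, 17.61 points) and interferon-stimulated genes (5 of 6, 21.71 points) had under 10 tested members. Without a filter the medians of these 5 lists, in the same order, were 11.32, 7.86, −0.71, 11.02 and −0.55 points, and among genes without a partner 1.6, −1.13, 0.24, 13.59 and 21.77 points. Of the 7 tested mitochondrially encoded genes 6 ranked higher by at most 10.69 points and none of them was called, while ND6 was lower by −63.22 points. Over all 13 without a filter 11 ranked higher, with a median of 2.61 points, and re-ranked among genes without a partner 4 of 7 did, with a median of 0.19 points.

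Markers of other marrow cells were summed as CPM over named genes. Erythroid markers summed to 976 to 1058 in CD115plusGMP and 111 to 157 in PreNeut, and in CD115plusGMP 9 of the 19, among them Gata1, Hba-a1, Hbb-bs and Slc4a1, had 0 reads. A single gene, Tmod1, which overlaps Tstd2 on the other strand, held 1133 of the 1194 reads of this list in CD115plusGMP, and Tfrc held 11171 of 13512 in PreNeut. T and NK cell markers summed to 423 to 457 and 46.3 to 62.8, with 3 of 6, Cd3e, Cd4 and Lck, at 0 in CD115plusGMP. Cd247, which overlaps Pou2f1 on the other strand, held 509 of the 513 reads there, and Nkg7, also an azurophilic list member, held 4401 of 4520 in PreNeut. Megakaryocyte markers summed to 54.0 to 84.1 and 696 to 788, with 10 of 14 at 0 in CD115plusGMP, and basophil and mast cell markers to 3.18 to 19.6 and 316 to 327. In PreNeut, Cd9 and Nfe2 held 30951 and 27241 of the 66136 megakaryocyte reads, and Hdc held 23933 of the 29389 basophil and mast cell reads. In bulk libraries, fewer cells of a type and less RNA per cell cannot be told apart. The part of such cells in the rank differences was not tested.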

How the data were processed

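Messenger RNA libraries were made with a Universal Plus mRNA-Seq kit, per the labels' protocols. The authors deposited log2 CPM values per gene; FastQC 0.11.7, featureCounts 1.22.2 and edgeR 1.30.5 with builds GRCm38 and mm10 are named in the submitters' processing notes, while no source used here gives the aligner or the strand setting. In each library every value equalled log2 of a whole number of reads plus 0.5 times a constant (tolerance 0.001 reads, 100% of values), which gave the reads quoted. Identifiers without a symbol (503) were left out.

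Percentile ranks, ties averaged, were computed within each library over the 7388 tested genes and fitted with limma 3.58.1 (R 4.3.3; eBayes with trend, 2-sided, Benjamini-Hochberg over all tested genes), 3 libraries against 3. No exact permutation test of 3 against 3 can go below 0.1. Gene lists are described by counts and medians without a test. In each list described, up to 5 members with the largest difference are named, called ones without overlap between groups first, plus surface genes and the 8 largest calls in each direction with a symbol that is not a predicted gene; others are said to be chosen after their values were seen. The members and lists were chosen with earlier results of these data known. Besides the motifs reported, the 15 searched included C/EBP-type letters (TTNNGNAA or TTGCGNAA or TTGNGCAA or TTGCNNAA, and the short form TTGCAA, which can overlap each other), TTCGAA as the variant of the cell cycle region, AGAGGAAG as the longer form of the PU.1 letters, the E-box CACGTG, the TBP site TATAAA, and E2F-type letters (TTTCGCGC or TTTGGCGC, with the short form CGCGAA), in which N is any base.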

Additional observations from a re-analysis of the deposited data

How the results depend on the processing

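Counts of called genes moved by over 1.5 times under 6 settings. Against 2386 higher calls there were 1527 with a mean log2 CPM above 3, 1526 with log2 CPM above 5 in 3 libraries, 1000 without genes that overlap another on the opposite strand, 4599 on deposited log2 CPM, 4291 on log2(CPM + 5) and 5141 with voom on the recovered reads. Against 1817 lower calls there were 1058 with log2 CPM above 5 and 872 without overlapping genes; the stricter filters and the strand setting test fewer genes by construction. Leaving out each library in turn gave 2026 to 2449 higher and 1760 to 1846 lower calls. Medians of 20 lists and differences of 138 named genes were recomputed under the filters, thinning, strand, pairing and left-out libraries. List medians reversed in 5 cases: the TCA cycle without overlapping genes (−1.13 points), interferon-stimulated genes without a filter (−0.55), the BCL2 family without a filter (−0.71) and with a mean log2 CPM above 3 (−21.5), and monocyte effectors with log2 CPM above 5 (0.36). Without overlapping genes Ifih1, ND4 and Spn reversed, to −0.51, −0.85 and −1.54 points. Ccna2, at −0.12 points, was at 0.05 after thinning and at −0.21 to 0.0 with a library left out. The cause was not tested. The replicate block, whose numbers do not pair the libraries (r of deviations 0.0673, 0.0379 and 0.0155), gave 2378 higher and 1812 lower calls. Reads of CD115plusGMP limit the precision of every rank in the lower part of those libraries.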
